A study of Mus musculus with 16 samples.

Results

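The 7 genes that encode the inhibitors of cyclin-dependent kinases (CDKs) were followed across the histone marks of young and aged hematopoietic stem cells (HSCs). The INK4 inhibitors are Cdkn2a, Cdkn2b, Cdkn2c and Cdkn2d, and the CIP/KIP inhibitors are Cdkn1a, Cdkn1b and Cdkn1c. They were listed by family from the 21851 protein-coding genes of the GENCODE M21 annotation of mm10. Each was taken as a gene window, which is the gene body with 5 kb on either side, and by its 15 start sites (of 41438 in all), each with 1 kb on either side. A gene was counted at a promoter when any of its start sites had a peak within that distance.

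HSCs were sorted from bone marrow of female C57BL/6 mice as lineage-negative, Sca-1+ and c-kit+ cells that were CD34-, Flt3- and CD48- but CD150+ (the labels also give IL-7-). Young mice were 10 weeks old and aged mice were 20 months old, with no further treatment given in the labels of either group. Chromatin immunoprecipitation with sequencing was performed for H3K4me3, H3K27me3 and H2AK119ub1 with 2 libraries per mark and age, beside 2 input libraries per age. Peaks came as 1 pooled list per mark and age, 6 in all, so no value below has a replicate spread, no difference between the ages could be tested, and the age of the mice cannot be told apart from any other difference between the libraries.

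CDK inhibitors hold back the cell cycle by blocking the kinases that phosphorylate the retinoblastoma protein. INK4 proteins bind CDK4 and CDK6, whereas CIP/KIP proteins bind cyclin-CDK complexes, and several members of both families are known for keeping HSCs quiescent. Cdkn2a encodes p16Ink4a and, from a separate first exon read in another frame, p19Arf, which stabilizes p53; together with Cdkn2b it is a classical target of the Polycomb complexes. H3K4me3 is a mark of active or poised promoters, H3K27me3 is deposited by Polycomb repressive complex 2 and H2AK119ub1 by Polycomb repressive complex 1.

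The bases just upstream of the start sites on which the results turn are printed here, because CpG-rich promoters are the usual seat of H3K4me3 and of Polycomb in mammals. All are from the GRCm38 (mm10) genome, read 5′ to 3′ in the direction of transcription, with each CpG dinucleotide in capitals, and each ends at the base before the start site. The p16Ink4a stretch lies at chr4:89282193-89282392, the p19Arf stretch at chr4:89294654-89294853, that of Cdkn2b at chr4:89311040-89311239 and that of Cdkn2c at chr4:109667190-109667389, all on the minus strand, while those of Cdkn1a, at chr17:29093569-29093768, and Cdkn1b, at chr6:134920201-134920400, lie on the plus strand.
p16Ink4a: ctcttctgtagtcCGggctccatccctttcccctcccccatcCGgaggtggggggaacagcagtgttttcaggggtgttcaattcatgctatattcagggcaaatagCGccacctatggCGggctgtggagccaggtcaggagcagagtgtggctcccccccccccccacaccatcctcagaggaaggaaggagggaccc
p19Arf: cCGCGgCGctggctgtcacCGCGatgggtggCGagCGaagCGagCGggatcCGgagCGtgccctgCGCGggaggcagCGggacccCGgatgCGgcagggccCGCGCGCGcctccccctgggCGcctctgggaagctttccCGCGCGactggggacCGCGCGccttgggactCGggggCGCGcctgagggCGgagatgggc
Cdkn2b: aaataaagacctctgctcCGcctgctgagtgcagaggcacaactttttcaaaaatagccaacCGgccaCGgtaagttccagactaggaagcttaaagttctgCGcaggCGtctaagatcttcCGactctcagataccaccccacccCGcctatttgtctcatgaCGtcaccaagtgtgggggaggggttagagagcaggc
Cdkn2c: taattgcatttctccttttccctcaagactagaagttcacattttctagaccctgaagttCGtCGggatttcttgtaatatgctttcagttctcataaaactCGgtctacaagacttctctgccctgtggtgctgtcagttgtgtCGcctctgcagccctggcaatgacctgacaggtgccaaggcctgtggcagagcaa
Cdkn1a: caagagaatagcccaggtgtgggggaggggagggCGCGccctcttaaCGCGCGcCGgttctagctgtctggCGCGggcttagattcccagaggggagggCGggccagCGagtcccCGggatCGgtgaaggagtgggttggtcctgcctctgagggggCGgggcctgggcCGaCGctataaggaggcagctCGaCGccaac
Cdkn1b: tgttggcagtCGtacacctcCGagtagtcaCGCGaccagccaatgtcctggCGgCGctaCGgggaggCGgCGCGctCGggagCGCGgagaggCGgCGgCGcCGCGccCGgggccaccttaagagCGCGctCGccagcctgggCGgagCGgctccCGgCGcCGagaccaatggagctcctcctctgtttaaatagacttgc

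These stretches of 200 bases differed widely in CpG. The p19Arf stretch held 31 CpG dinucleotides and the p16Ink4a stretch of the same gene held 4. Cdkn1b held 27, Cdkn1a 17, Cdkn2b 8 and Cdkn2c 4. Over the wider 2001 bp centred on each start site, p19Arf had 167 CpG dinucleotides and the upstream start site of Cdkn1c had 171, numbers reached by 3.73% and 3.22% of all start sites. The p16Ink4a start site had 57, against a median of 62 over all start sites. These 2 start sites, alike in CpG, differed in marks: p19Arf lay under young H3K27me3, and Cdkn1c had no listed peak of any mark.

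The cell label was checked at the promoters of marker genes. H3K4me3 was listed at 6 of 9 HSC marker promoters in young (33.8% of all genes) and at 6 of 9 in aged HSCs (23.3%), among them Procr, Mecom, Hlf and Meis1 at both ages. Slamf1 and Ly6a, which encode the sorted proteins CD150 and Sca-1, had none at either age. Kit, which encodes the sorted protein c-kit, had none in young HSCs and was listed in aged HSCs only. None of the 9 had H3K27me3. Of 7 markers of other blood cells, H3K4me3 was at 1 (Ebf1), at both ages. H3K27me3 was at 3 of these 7 in young HSCs (Pax5, Ebf1 and Cd3e) and at 2 in aged HSCs (Pax5 and Ebf1). Of 4 markers of other tissues none had H3K4me3, and 3 (Myod1, Neurod1 and Gata4) had H3K27me3 at both ages. The lists themselves were unequal: H3K4me3 covered 3.90 Mb in young and 2.06 Mb in aged HSCs, H3K27me3 41.0 Mb and 10.0 Mb, and H2AK119ub1 0.958 Mb and 7.50 Mb. Each count of members is therefore given beside the share of all genes in the same list.

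The marks split the genes into 4 kinds. Cdkn2a and Cdkn2b carried both Polycomb marks and no H3K4me3. Cdkn2c carried H3K4me3 at both ages, H3K27me3 in young HSCs only and H2AK119ub1 in aged HSCs only. Cdkn2d, Cdkn1a and Cdkn1b had H3K4me3 without any H3K27me3, and Cdkn1c had no listed peak of any mark.

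H3K4me3 was in the window of 4 of the 7 genes in young HSCs (40.6% of all genes) and of 2 in aged HSCs (29.0% of all genes). The promoter counts were the same, 4 in young (33.8% of all genes) and 2 in aged HSCs (23.3%), and of the 15 start sites 8 had a peak in young (33.0% of all start sites) and 4 in aged HSCs (22.5%). Cdkn2c and Cdkn1b had a peak at both ages, and Cdkn2d and Cdkn1a were listed in young HSCs only. Listing in young HSCs only was common: 16.3% of all genes had promoter H3K4me3 in the young list only, 5.78% in the aged list only and 17.5% in both.

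H3K27me3 was in the window of 3 genes in young HSCs, Cdkn2a, Cdkn2b and Cdkn2c (27.8% of all genes), and of 2 in aged HSCs, Cdkn2a and Cdkn2b (16.5%). At promoters these numbers were the same, 3 (16% of all genes) and 2 (8.24%), and 4 start sites in young (14.1% of all start sites) and 3 in aged HSCs (6.84%) had a region. H2AK119ub1 went the other way. Its regions were in 2 gene windows in young HSCs, Cdkn2a and Cdkn2b (5.99% of all genes), and in 5 in aged HSCs, where Cdkn2c, Cdkn1a and Cdkn1b joined them (29.0%). At promoters it was listed for Cdkn2a alone in young HSCs, 1 gene (1.91% of all genes), and for 4 genes in aged HSCs (14.0%). Of the start sites, 1 in young (1.51% of all start sites) and 6 in aged HSCs (12.1%) had a region. With the aged list shortened to the length of the young list, aged H2AK119ub1 was in 3 gene windows but at 1 promoter and 1 start site, the same numbers of promoters and start sites as in young HSCs, so the direction was lost there. The gene differed, as the aged promoter left was that of Cdkn2c and the young 1 was that of Cdkn2a. The aged regions at the promoters of Cdkn2a, Cdkn2b and Cdkn1b, with ranks from 3866 to 13192 of 17768 by q-value, dropped out. With 7 genes, counts of this size say little beside the shares of all genes; what set members apart was how much of a window was covered, as the plot of coverage by gene shows.

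**Figure D1:**
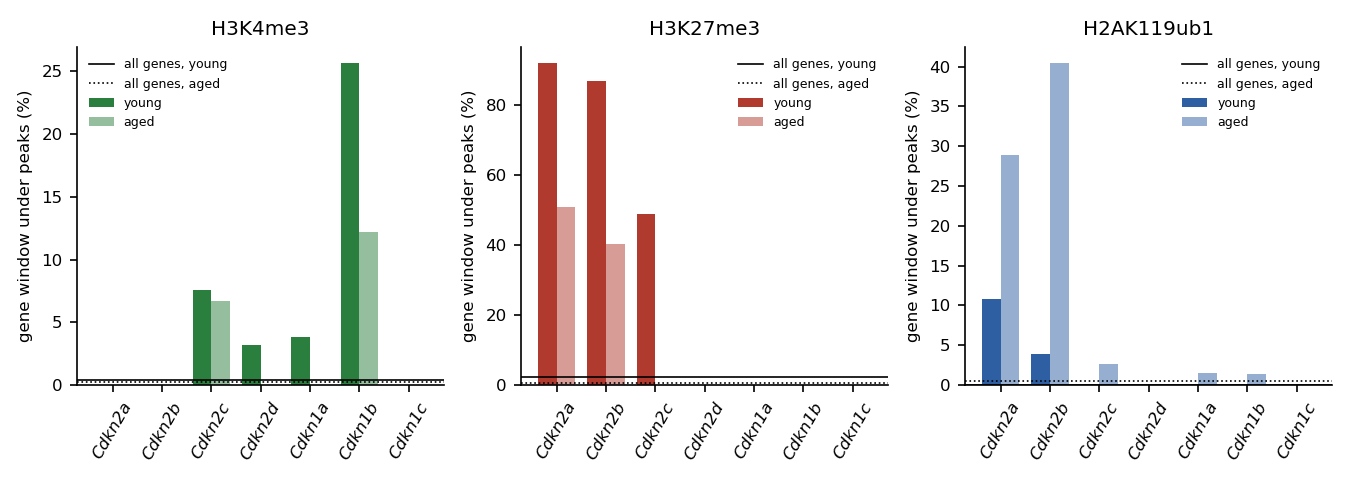
Percent of each gene window (gene body with 5 kb on either side, y axis) under listed peaks or regions, by gene (x axis), in 1 panel per mark; full colour is young, pale is aged, and the solid and dotted lines give the share over all gene windows in young and aged HSCs. Young H3K27me3 covers 92.0% of the Cdkn2a window, 86.8% of the Cdkn2b window and 48.9% of the Cdkn2c window, and H3K4me3 stands highest at Cdkn1b.

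Cdkn2a (chr4:89274471-89294653, minus strand) and Cdkn2b (chr4:89306299-89311039, minus strand), which encodes p15Ink4b, lie side by side, and their windows with the bases between them make a domain of 46569 bp (chr4:89269471-89316039). In young HSCs, 10 H3K27me3 regions covered 90.6% of it. The widest, at chr4:89295457-89310547, was 15091 bp long with an authors' mean enrichment over background of 4.35-fold. It ran from the sequence upstream of p19Arf through nearly the whole body of Cdkn2b, and 0.0554% of the young regions were at least as wide.

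Another region of 12903 bp (chr4:89271938-89284840, 4.03-fold) held the p16Ink4a start site, the exons shared by p16Ink4a and p19Arf, and the 5′ end of the noncoding gene Gm12606. The third large one, of 8532 bp (chr4:89286563-89295094, 4.01-fold), held the p19Arf first exon and start site. The start site of Cdkn2b lay in a smaller region of 1207 bp (chr4:89310924-89312130, 3.06-fold). All 3 start sites of the domain were thus inside young H3K27me3 regions.

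In aged HSCs the domain was still marked, in more and shorter pieces. H3K27me3 was listed at 23 regions that covered 46.9% of it, from 203 bp to 3891 bp wide with a median of 709 bp, and the median gap between them was 685.5 bp against 339 bp in young HSCs. Of the aged bases, 98.6% were also under a young region, against 66.4% over the whole aged list. Young regions covered 90.6% of the domain, which left little ground outside them. These shares are therefore not alike, and the higher one does not show that aged regions followed the young ones. The widest aged region lay over the introns and a coding exon downstream of the p16Ink4a start (chr4:89276855-89280745, 3.45-fold), and the most enriched lay just past that start (chr4:89281302-89282038, 3.89-fold). No start site of the domain was inside an aged region, although each had one within 1 kb: 154 bp away for p16Ink4a, 426 bp for p19Arf and 748 bp for Cdkn2b. Beyond the Cdkn2b start site, 3 further regions were listed upstream in young HSCs, as far as chr4:89315079-89315414 (2.57-fold), and none in aged HSCs.

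The domain kept more of its H3K27me3 than the list as a whole. The aged covered length was 0.552 of the young length in the Cdkn2a window and 0.464 in the Cdkn2b window, against 0.259 over all gene windows. In young HSCs 51 genes had a window at least as covered as that of Cdkn2a and 98 as that of Cdkn2b, and all of these had an aged region, with a median aged coverage of 57.0% and 55.3%. The aged coverage of Cdkn2a (50.8%) and Cdkn2b (40.3%) lay below these medians. Against the whole list both genes stood high, and against windows as covered in young HSCs they stood below the middle. When regions within 1 kb of each other were joined, a setting chosen after seeing the data, the widest joined stretch was 29459 bp in young HSCs (rank 64 by width of 39942) and 14207 bp in aged HSCs (rank 42 of 14617).

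**Figure D2:**
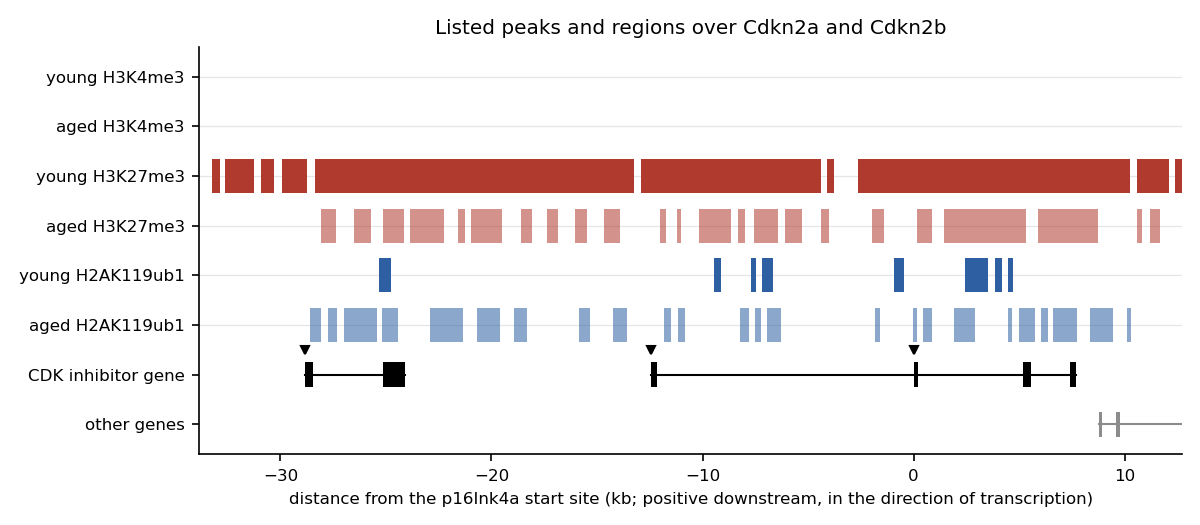
Map of the Cdkn2a and Cdkn2b domain by distance from the p16Ink4a start site (x axis, kb, positive in the direction of transcription), with 1 track per list (green H3K4me3, red H3K27me3, blue H2AK119ub1; pale for aged); black boxes are exons of Cdkn2b (left) and Cdkn2a (right), triangles are start sites and the grey gene is Gm12606. The 10 young H3K27me3 regions leave few gaps, the 23 aged regions are shorter, H2AK119ub1 goes from 8 young to 24 aged regions, and the H3K4me3 tracks are empty.

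H2AK119ub1 moved in the other direction over the same domain. In young HSCs, 8 regions between 243 bp and 1112 bp wide covered 8.22% of it, 7 of them in introns of Cdkn2a and 1 over Cdkn2b (chr4:89306944-89307516, 3.07-fold). In aged HSCs, 24 regions of up to 1583 bp covered 32.8%. The aged regions included 1 of 200 bp over the p16Ink4a start site itself (chr4:89282012-89282211, 3.52-fold), 1 in the intron behind the p19Arf first exon (chr4:89293667-89294031, 3.01-fold) and 1 in Cdkn2b (chr4:89310253-89310797, 3.30-fold). None of these was left when the aged list was shortened to the length of the young list.

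Of the H2AK119ub1 bases listed in the domain in young HSCs, 37.1% were under an aged region (40.5% over the whole list), and of those listed in aged HSCs 9.30% were under a young region (5.17% over the whole list). These shares were near those of the domain itself under aged (32.8%) and young (8.22%) regions. Set against H3K27me3 of the same age, all young H2AK119ub1 bases (100%) lay under a region, and 66.8% did in aged HSCs. H3K27me3 itself covered 90.6% of the domain in young and 46.9% in aged HSCs. The lower aged overlap thus came with less ground under H3K27me3, and a change in how the marks lie together was not tested. The increase was uneven between the neighbours, with an aged over young covered length of 2.68 at Cdkn2a and 10.4 at Cdkn2b, against 7.95 over all gene windows. The ratio at Cdkn2b rests on 1 young region of 573 bp (−log10 q-value 1.48). With the aged list shortened to the length of the young list, the aged regions left at Cdkn2a were 1129, 1108 and 452 bp wide. Together these covered less than the 3254 bp of young HSCs, so the increase at Cdkn2a was lost. The aged regions left at Cdkn2b were 1110 and 1561 bp wide. By number of regions, 17 at Cdkn2a in aged HSCs was reached by 32 genes of 21851 and 7 in young HSCs by 37. H3K4me3 was absent from the lists here at both ages, the nearest peak lying 143864 bp from the p16Ink4a start in young and 242387 bp in aged HSCs.

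Cdkn2c (chr4:109660876-109667189, minus strand), which encodes p18Ink4c and lies farther along the same chromosome, had H3K4me3 beside a Polycomb mark at both ages. Its promoter combination (H3K4me3 at both ages, H3K27me3 in young only, H2AK119ub1 in aged only) was found at 58 genes, 0.265% of all. Its H2AK119ub1 part rests on a region that ends 974 bp from the proximal start site, which was not counted within 500 bp of a start site. In young HSCs H3K4me3 and H3K27me3 were at the promoters of the same gene in 646 cases (2.96% of all genes), and Cdkn2c was the 1 member among them. Its promoter H3K4me3 peaks shared no bases with H3K27me3, and the nearest H3K27me3 region to its distal start site was 1950 bp away. In aged HSCs this pair of marks was listed together at 173 genes (0.792%), and at no member.

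Young H3K4me3 peaks stood over the distal start site (chr4:109666880-109667290, 5.44-fold) and inside the 5′ UTR downstream of it (chr4:109666255-109666607, 3.83-fold). Another lay downstream of the gene, at the promoter of the noncoding gene 9630013D21Rik (chr4:109656715-109657179, 3.03-fold). The 3.83-fold and 3.03-fold peaks both had rank 7783 of 11371 by q-value. Neither was left when the young list was shortened to the length of the aged list. In aged HSCs the peak over the distal start site was not listed. Aged peaks flanked the proximal start site, at chr4:109664985-109665203 (4.64-fold) and chr4:109665400-109665708 (3.98-fold), the latter 28 bp from it. The other aged peaks, at chr4:109666321-109666597 (4.42-fold) and chr4:109656718-109657003 (4.59-fold), overlapped their young counterparts. The nearest aged peak to the distal start was 592 bp away, and the nearest young peak to the proximal start was 883 bp away.

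These peaks rest on few reads. At the summits, 26, 17 and 26 reads were recovered in young HSCs, and 20, 20, 17 and 19 in aged HSCs, in the order of position. The 95% exact Poisson interval of the young summit over the distal start runs from 17.0 to 38.1 reads and that of the aged summit nearest the proximal start from 9.90 to 27.2 reads. Reads at places that are not listed at an age are not part of these data, so the difference between the start sites was not tested.

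H3K27me3 at Cdkn2c was extensive in young HSCs and not listed at all in aged HSCs. The main region was 6920 bp wide (chr4:109653416-109660335, 3.57-fold), starting just downstream of the gene and covering the 5′ part of 9630013D21Rik (chr4:109651529-109657853, minus strand). Further regions lay over its 3′ end (chr4:109660805-109662741, 3.12-fold), in its intron (chr4:109663086-109663701, 3.04-fold) and up to 133 bp from the proximal start site (chr4:109664271-109665239, 3.68-fold). Together they covered 48.9% of the window. The nearest aged H3K27me3 region was 303046 bp upstream of the gene.

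A young domain of this size seldom went unlisted in aged HSCs. Of 260 young H3K27me3 regions at least 6920 bp wide, the 1 downstream of Cdkn2c was alone in having no aged region inside it. The median share of bases under aged regions was 55.5%. That region lay outside the gene, 5037 bp from its nearest start site. The regions over the gene itself were 1937, 969 and 616 bp wide. Of young regions at least as wide as these, 14.2%, 43.0% and 61.5% had no aged region. Seen by gene, 293 windows were at least as covered in young HSCs as that of Cdkn2c, and 1 of them, Cdkn2c itself, had no aged region. Among all 63142 young regions, most of them narrow, 84.6% had none. The comparison was set at the width of the region downstream of Cdkn2c, so it describes where that region stands and is no test. Of the 773 young regions of at least 4000 bp, 7 had no aged region (0.906%).

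**Figure D3:**
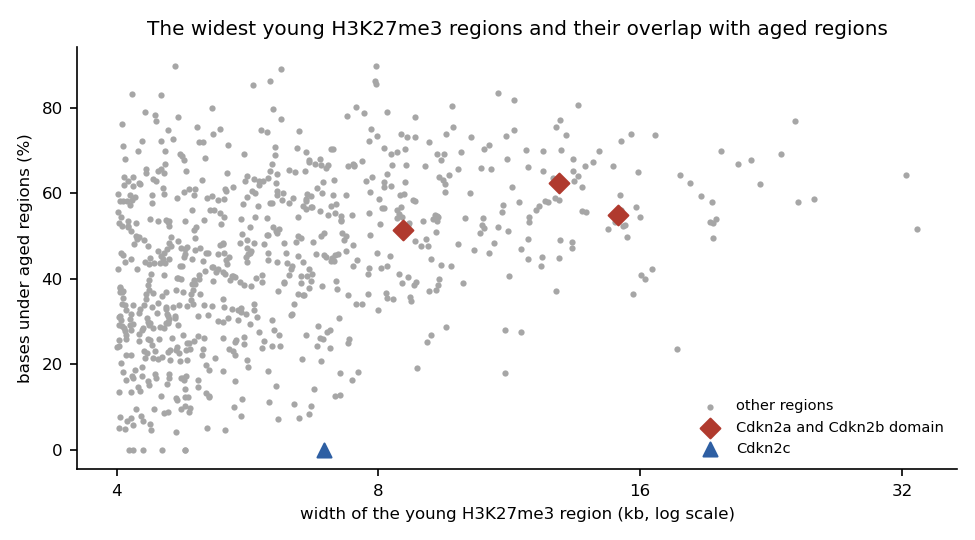
Width of each young H3K27me3 region of at least 4000 bp (x axis, kb, log scale) against the percent of its bases under aged H3K27me3 regions (y axis); each point is 1 of 773 regions, red diamonds are those of the Cdkn2a and Cdkn2b domain and the blue triangle is the region downstream of Cdkn2c. The region downstream of Cdkn2c, 6920 bp wide, sits at 0, whereas the 3 wide regions of the other domain lie at 51.3%, 62.4% and 54.9%.

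Other aged lists had peaks at this place. An aged H3K4me3 peak (4.59-fold) and an aged H2AK119ub1 region (chr4:109659660-109659859, 3.34-fold) lay inside the wide region that H3K27me3 occupied in young HSCs. The H3K4me3 there was not new, as the young peak at 9630013D21Rik had all its 465 bp under young H3K27me3. The aged H3K4me3 peak at chr4:109664985-109665203 (4.64-fold) lay inside the young H3K27me3 region next to the proximal start site. The H3K4me3 and H2AK119ub1 lists come from other libraries than those of H3K27me3. Of the 60-base words of the window, which is the read length, 98.0% occurred once in the genome. The young region of 6920 bp had rank 5997 of 63142 by q-value. A second aged H2AK119ub1 region lay in the intron (chr4:109664167-109664398, 3.71-fold) and overlapped the young H3K27me3 region next to the proximal start site. H3K27me3 in the single libraries was not analysed here, and the part of depth, alignment or the calling threshold in the missing aged region was not tested.

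Cdkn2d (chr9:21288410-21291407, minus strand), which encodes p19Ink4d, had 2 H3K4me3 peaks in young HSCs and no other listed peak. One was inside the gene, 575 bp from the nearer of its start sites (chr9:21290364-21290578, 2.80-fold, 24 reads at the summit), and the other lay at the promoter of the neighbouring gene Kri1 (chr9:21287723-21287922, 3.31-fold, 22 reads). Both were weak within their list, as 96.0% and 87.1% of the young peaks had at least their enrichment, and neither was left when the young list was shortened to the 6723 best peaks, the number in the aged list. The nearest aged H3K4me3 peak was 63171 bp from a start site.

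Cdkn1a (chr17:29090976-29100727, plus strand) encodes p21Cip1, the inhibitor induced by p53, and has several start sites. Its young H3K4me3 peaks both lay behind the start sites at 29093769 and 29093781, at chr17:29094037-29094317 (3.83-fold, 21 reads) and chr17:29094587-29095062 (3.36-fold, 17 reads). Both also lay within 1 kb of the start of AC167363.2 (chr17:29093416-29094461), an unclassified gene on the minus strand. The peak with 17 reads had rank 9765 of 11371 by q-value. It was not left when the young list was shortened to the length of the aged list. Neither the upstream start at 29090979 nor the internal one at 29097900 had a peak within 1 kb. The CpG content split the start sites the same way, with 106 and 109 CpG dinucleotides around the marked pair and 17 and 54 around the others. In aged HSCs the nearest H3K4me3 peak was 57855 bp upstream of the gene. The one aged mark was a narrow H2AK119ub1 region in an intron (chr17:29092090-29092382, 3.57-fold), 1111 bp behind the upstream start. Only 83.0% of the 60-base words of this window were unique in the genome, though 98.8% of those around the start sites were.

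Cdkn1b (chr6:134920401-134925513, plus strand), which encodes p27Kip1, had the window most densely covered by H3K4me3 in the family, near the top of all gene windows. In young HSCs, 9 peaks covered 25.6% of its window, the highest share among all 21851 genes, and in aged HSCs 4 peaks covered 12.2%, a share reached by 5 genes. The share over all gene windows was 0.385% in young and 0.205% in aged HSCs. The Cdkn1b window is short, at 15113 bp with its flanks, and most of its covered bases lay in the flanks and not in the gene. By number of peaks, 13 genes had 9 or more in the young list and 105 genes had 4 or more in the aged list. These ranks are for the full lists. The young peaks at chr6:134921492-134921796 and chr6:134927489-134927690 (2.35-fold) had ranks 10263 and 11328 of 11371 by q-value. Neither was left when the young list was shortened to the length of the aged list. The covered length in aged HSCs was 0.475 of that in young HSCs, near the 0.531 over all gene windows.

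The peaks of Cdkn1b fell into 3 groups. One lay upstream of the gene, with young peaks at chr6:134916296-134916908 (5.67-fold) and chr6:134917018-134917427 (3.89-fold) and a single aged peak across both (chr6:134916613-134917352, 4.86-fold). At 740 bp, that aged peak was wider than nearly all others, with 0.788% of the aged list at least as wide. The second group lay at the start sites and in the body. In young HSCs it ran from chr6:134920572-134920984 (4.00-fold) through chr6:134921492-134921796 (3.40-fold) to chr6:134922027-134922404 (4.25-fold). In aged HSCs it held 1 peak before the start sites (chr6:134919796-134920222, 4.42-fold) and 1 behind them (chr6:134920805-134921117, 4.20-fold).

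The third group lay downstream, toward the noncoding genes Lockd and Gm44238. Young HSCs had 4 peaks there, of which chr6:134927811-134928593 was the widest of the gene at 783 bp (4.23-fold) and chr6:134928918-134929385 the most enriched of the group (5.04-fold). Aged HSCs had 1, at chr6:134928992-134929351 (2.87-fold), inside the most enriched young peak. Each group thus had at least 1 peak at both ages. Of the young H3K4me3 bases in the window, 30.2% were also under aged peaks, and of the aged bases 63.6% were under young peaks.

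The 9 young summits had 26, 26, 22, 15, 19, 20, 20, 24 and 19 reads in the order of position, and the 4 aged summits had 21, 19, 18 and 20. The lowest young summit, with 15 reads, had an interval from 8.40 to 24.7 reads, and every one of the other 12 counts lay inside it or, for the 2 summits with 26 reads, just above it, at intervals from 17.0 to 38.1. Over all members, the listed young summits ran from 15 to 26 reads and the listed aged summits from 17 to 21, beside backgrounds of 3.70 to 7.92 reads and 3.52 to 6.33 reads. Neither list holds a summit below 13 reads, so these heights describe listed peaks only and do not compare the ages. The intervals cover counting error only.

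**Figure D4:**
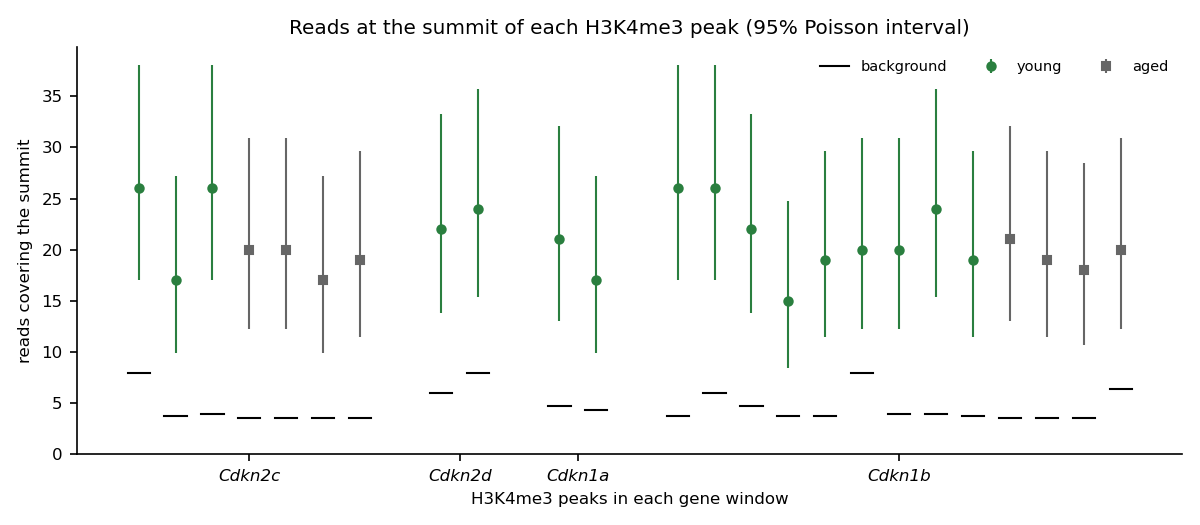
Reads covering the summit of each H3K4me3 peak in the 4 gene windows that hold any (y axis), in order of position within each gene and age (x axis); green circles are young, grey squares are aged, bars are exact Poisson 95% intervals and short black lines are the background under the peak. Young summits reach from 15 to 26 reads and aged summits from 17 to 21; places not listed at an age are not shown.

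Neither Polycomb mark was prominent at Cdkn1b. No H3K27me3 region of either age lay within 100 kb of the gene, the nearest being 115061 bp (young) and 114975 bp (aged) downstream. The single H2AK119ub1 region was in the aged list, 730 bp before the first start site (chr6:134919472-134919671). At 200 bp it was as narrow as a listed region can be, since 100% of the aged list was at least as wide, and its 3.14-fold enrichment placed it at rank 13192 of 17768 by q-value.

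Cdkn1c (chr7:143458339-143461050, minus strand) encodes p57Kip2, an imprinted gene known for keeping HSCs quiescent. None of the 6 lists had a peak in its window, which was also the state of 31.6% of all genes. H3K4me3 was 87680 bp away in young and 87164 bp in aged HSCs. The closest Polycomb regions lay downstream of the gene: young H3K27me3 at chr7:143444502-143447446 (2945 bp, 3.45-fold, 10893 bp from the gene), aged H3K27me3 at 19452 bp, and H2AK119ub1 at 12211 bp in young and 10748 bp in aged HSCs. Of the 60-base words of the window, 99.8% were unique in the genome. The GC content around its start sites, 66.2% and 66.7%, was the highest of the family. The part of either in the empty window was not tested.

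**Figure D5:**
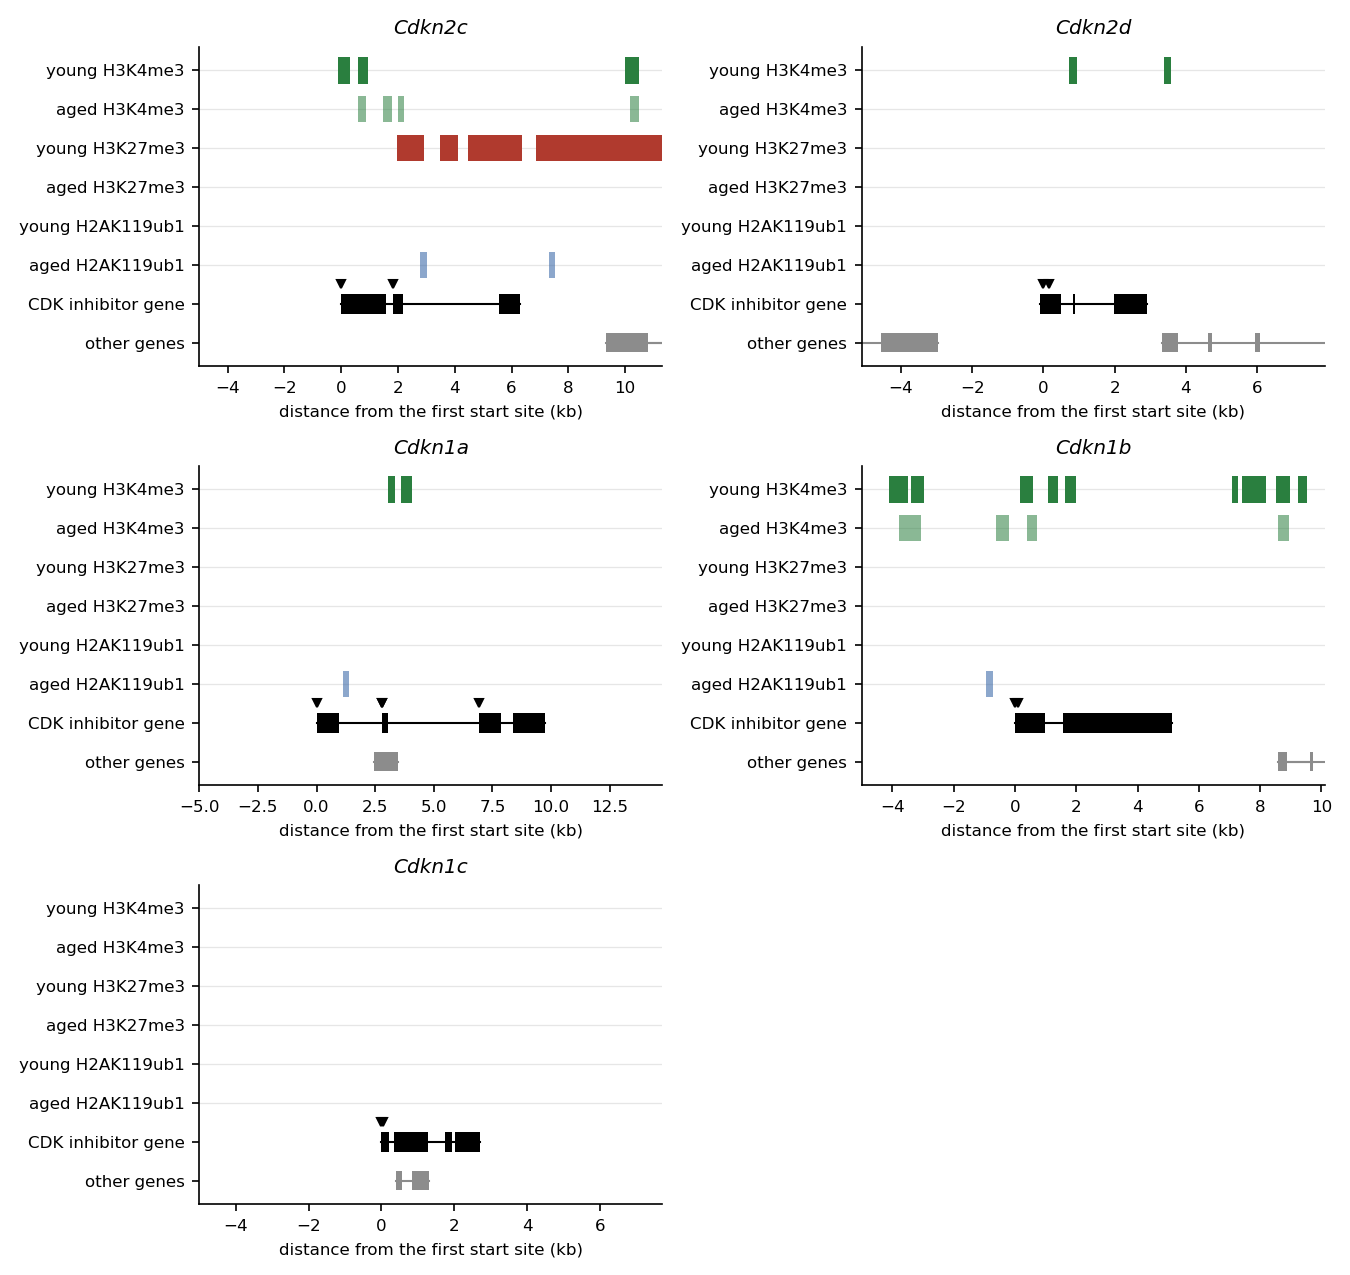
Maps of the Cdkn2c, Cdkn2d, Cdkn1a, Cdkn1b and Cdkn1c windows by distance from the first start site (x axis, kb, positive in the direction of transcription), with 1 track per list coloured by mark and pale for aged; black boxes are exons, triangles start sites and grey boxes other genes. Cdkn2c has young but no aged H3K27me3, Cdkn1b has 9 young and 4 aged H3K4me3 peaks in 3 groups, and the Cdkn1c tracks are empty.

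The partners and regulators of the inhibitors were counted by the same promoter rule over a list of 33 genes. H3K4me3 was at 20 of them in young and 13 in aged HSCs, with 9 at both ages, 11 in young only and 4 in aged only. Over all genes the same promoter rule gave 33.8% in young and 23.3% in aged HSCs, with 17.5% at both ages, 16.3% in young only and 5.78% in aged only. Among 11 cyclins and kinases it was at 8 in young and 3 in aged HSCs. Ccnd1, Cdk2 and Ccna2 had it at both ages, and Ccnd2, Ccnd3, Ccne2, Cdk1 and Ccnb1 in young HSCs only. Cdk4 and Cdk6, the kinases that INK4 proteins bind, had no listed peak of any mark at their promoters. Of the 7 genes of the retinoblastoma and E2F families, Rb1, Rbl1 and E2f3 had H3K4me3 in young only, E2f4 in aged only and Rbl2 at both ages.

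H3K27me3 was at 2 of the 33 promoters in young HSCs, Bmi1 and Cbx8 (16% of all genes), and at 1 in aged HSCs, Cbx8 (8.24% of all genes). Both genes encode subunits of Polycomb repressive complex 1. H2AK119ub1 was at 0 of the 33 in young (1.91% of all genes) and at 3 in aged HSCs (Ccnd3, Ccna2 and Cbx8; 14.0% of all genes), counts near the shares of all genes. Bmi1, the classical repressor of Cdkn2a, had H3K27me3 in young only and H3K4me3 in aged only. Ezh2, which encodes the H3K27 methyltransferase, and Suz12, its partner, had H3K4me3 in young only, and Eed in aged only. Skp2 and Cks1b, which direct p27Kip1 to degradation, both had H3K4me3 at both ages, as did Cdkn1b. Trp53 had it at both ages and Mdm4 in aged only, while Mdm2, whose product p19Arf inhibits, had none.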

How the data were processed

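The authors aligned single reads of 60 bases to mm10 and called peaks on each mark and age; the submitters' processing notes name Bowtie2 and MACS2 2.2.6. The deposited lists are narrow peaks for H3K4me3 and broad regions for H3K27me3 and H2AK119ub1. For each peak the authors give a fold enrichment over background (a linear ratio) and the −log10 of its p-value and q-value; for broad regions these are averages. Only positions past the caller's threshold are listed, so weaker signal is not seen. Labels of the H3K4me3 peaks carry a pair of library numbers and those of the broad regions a single one, so whether both libraries entered each broad list is not certain. Aligned reads and inputs were not analysed here, and the depth of the broad lists is unknown.

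Peaks were matched to GENCODE M21 protein-coding genes and to start sites of its basic transcripts by an overlap of at least 1 bp, with scripts in Python 3.11.15 (pandas 2.3.3, numpy 2.4.6, scipy 1.17.1, pysam 0.24.0), and the counts were checked with bedtools 2.31.1. For H3K4me3, reads at the summit were recovered from the fold and the p-value, which gave whole numbers within 0.002 on the −log10 p scale for 100% of peaks; this recovery and the overlap code were tested on simulated data. Figures were drawn with matplotlib 3.10.9. The genes, the pathway list and the markers were chosen with earlier results of these data known. All 7 genes and the peaks of their windows were to be named, the pathway genes as counts with examples, and neighbours where a peak lay at their promoter; the comparison of wide regions and of unique 60-base words was added after seeing the data. Alternatives were the window and promoter size, the start sites used, the overlap, the q-value and the list length. Some markers and sequences are not reported here.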

Additional observations from a re-analysis of the deposited data

How the results depend on the processing

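No paired analysis was possible because the peak lists are pooled, and for the same reason no library could be left out. The number of gene windows with H3K27me3 (3 in young and 2 in aged HSCs) was the same under all 5 alternatives, and that with H3K4me3 (4 and 2) under all but equal list lengths, where Cdkn2d dropped out and 3 were left in young HSCs. Raising the minimum −log10 q-value to 2 lowered the Polycomb values: aged H3K27me3 went to 1 gene by promoter, 1 start site and 13939 of 21272 bp, young H2AK119ub1 to 1 gene window, 0 promoters, 0 start sites and 302 of 3827 bp, and aged H2AK119ub1 to 2 promoters, 2 start sites and 10038 of 15614 bp. With lists of equal length, young H3K4me3 was at 5 start sites and over 4061 of 6277 bp, and aged H2AK119ub1 was in 3 gene windows, 1 promoter and 1 start site and over 5592 bp. Within 500 bp of a start site, young H3K4me3 was at 5 start sites, aged H3K27me3 at 1 promoter, and aged H2AK119ub1 at 2 promoters and 2 start sites. With at least 50% of a peak required inside, young H3K27me3 was at 2 start sites and aged H3K27me3 at 1 promoter. Young regions of 8532 bp and more cannot meet this in a start-site window of 2001 bp, so the loss of the Cdkn2a start sites was set by region width. Gene bodies alone held 2731 bp of young and 1118 bp of aged H3K4me3, 26592 bp of young H3K27me3 and 9998 bp of aged H2AK119ub1, as fewer bases are counted. Joining regions within 1 kb, chosen after seeing the data, left 2 young and 5 aged H3K27me3 regions in the Cdkn2a to Cdkn2b domain (widest 29459 bp and 14207 bp), and 5 young and 10 aged H2AK119ub1 regions (widest 2290 bp and 5824 bp). Flanks of 10 kb, promoters of 2 kb, the start sites of every transcript and reads not rounded changed none of these counts by more than 1.5 times.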

Other observations

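The surroundings of the genes differed beyond their windows. Within 100 kb of Cdkn2c, outside its window, the young H3K27me3 list held 1 further region, of 238 bp, and the aged list held none, so the young domain over the 3′ side of the gene stood alone. Around Cdkn1c, whose window was empty, H2AK119ub1 was listed at 3 regions in young and at 14 in aged HSCs, covering 792 bp and 4988 bp, while H3K27me3 covered 3774 bp in young and 200 bp in aged HSCs. Around Cdkn2d, which had no Polycomb mark in its window, H3K27me3 was listed at 5 regions in young and 4 in aged HSCs.

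Across the genome, 20947 start sites had between 57 and 173 CpG dinucleotides within 1 kb, the range spanned by Cdkn2a, Cdkn2b and Cdkn1c. H3K4me3 was listed at 53.9% of these in young and 37.0% in aged HSCs, against 33.0% and 22.5% of all start sites. H3K27me3 was at 18.0% and 9.61%, and H2AK119ub1 at 2.40% and 18.3%. None of the 5 start sites of these 3 genes had H3K4me3 at either age. The range was set by the members without listed H3K4me3, so this absence was fixed by the choice and is no test. The start sites of Cdkn2c, Cdkn2d and Cdkn1b, with 86 to 138 CpG dinucleotides, lay in the same range. All of them had H3K4me3 within 1 kb in young HSCs.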
